A study of Mus musculus with 6 samples.

Results

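Cd44 and 9 integrin subunit genes (Itgav, Itgb1, Itgb3, Itgb5, Itgb6, Itga4, Itga5, Itga8 and Itga9), which encode the cell-surface receptors of osteopontin, were followed in mouse tumour cells labelled as depleted of Spp1, the osteopontin gene. The genes were taken by symbol, whatever their values, from probe sets that name 1 gene, and are 10 of 22180 genes with such a probe set. Itgav has 2 probe sets and each of the others has 1. Their Entrez gene identifiers are 12505 (Cd44), 16410 (Itgav), 16412 (Itgb1), 16416 (Itgb3), 16419 (Itgb5), 16420 (Itgb6), 16401 (Itga4), 16402 (Itga5), 241226 (Itga8) and 104099 (Itga9).

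RNA came from 6 cultures of 3 lines: MC38, a colon adenocarcinoma, AE17, a malignant mesothelioma, and LLC, the Lewis lung carcinoma. Each line had 1 culture titled sh Spp1, with the genotype label Spp1 depletion, and 1 titled sh Ctrl, with the genotype label wild type. The labels do not say whether the sh Ctrl cells received a control hairpin, or whether a transfected line is a clone or a pool. All cells grew in the same serum-containing medium without host cells, so the data hold no stroma or immune cells of a tumour.

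Osteopontin is a secreted glycoprotein of bone, inflamed tissue and many tumours. Through an arginine-glycine-aspartate (RGD) motif it binds integrins, heterodimers of an alpha and a beta chain that link extracellular matrix to the actin cytoskeleton and to kinase signalling. After cleavage by thrombin or matrix metalloproteinases it also exposes a site for the integrins that contain Itga4 or Itga9, and it binds Cd44, better known as the receptor for hyaluronan. An integrin reaches the surface only as a pair, so a line can use a receptor only where both chain genes are transcribed.

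Each array gave 1 intensity per probe set, and levels are given below as log2 intensity after quantile normalization, on which 1 unit is a doubling. The number of arrays limits the precision: a value within a line is 1 array against 1 array. The background level of an array was set at the 95th percentile of 1405 probe sets for olfactory and vomeronasal receptors, chemosensory genes taken here as probe sets without transcript, and lay between 5.15 and 5.31. The AE17 arrays stood apart from each other: they correlated at r = 0.933 over 23521 probe sets, against 0.985 for the MC38 pair, 0.983 for the LLC pair, and 0.942 to 0.961 for the AE17 arrays with those of the other lines. Spp1 itself was not analysed here, so the depletion rests on the labels. Defining markers of the labelled tissues were partly at background. In MC38 2 of 8 colon markers were above background on each array and Cdx1, Cdx2, Vil1 and Krt20 were not. In AE17 8 of 9 mesothelial markers were above it with sh Spp1 and 4 with sh Ctrl, while Msln was at 9.96 (sh Spp1) and 9.87 (sh Ctrl) in MC38, against 5.34 (sh Spp1) and 5.13 (sh Ctrl) in AE17. In LLC 2 of 8 lung markers were above it, Sftpc and Nkx2-1 not among them. Of 9 leukocyte markers with a probe set, Ptprc, Cd3e, Adgre1, Itgam and Laptm5 were above background on 0 arrays, Cd68 on 6, Fcer1g on 5, Csf1r on 2 and Lyz2 on 1, the AE17 sh Ctrl array.

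The first question was which receptors each line transcribes. Cd44, Itgav, Itgb1, Itgb5 and Itga5 were above background on all 6 arrays, Itgb3 on 5, Itga9 on 4, Itga8 on 1 and Itgb6 and Itga4 on 0. Over all genes, 50.5% were above background on all 6 arrays and 32% on 0, and each array had between 58% and 60.9% of genes above it. Both chains of Itgav-Itgb1, Itgav-Itgb5 and Itga5-Itgb1 were therefore above background in every culture. Itgav-Itgb3 was added on both arrays of MC38 and of AE17, and Itga9-Itgb1 on both arrays of AE17. On the AE17 sh Ctrl array Itga9 was only just above background, at 5.34 against a level of 5.31. Of 8 integrin pairs, both arrays of the line had 4 in MC38, 5 in AE17 and 3 in LLC. A pair counted here is a pair of transcripts, and surface protein was not measured.

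**Figure D1:**
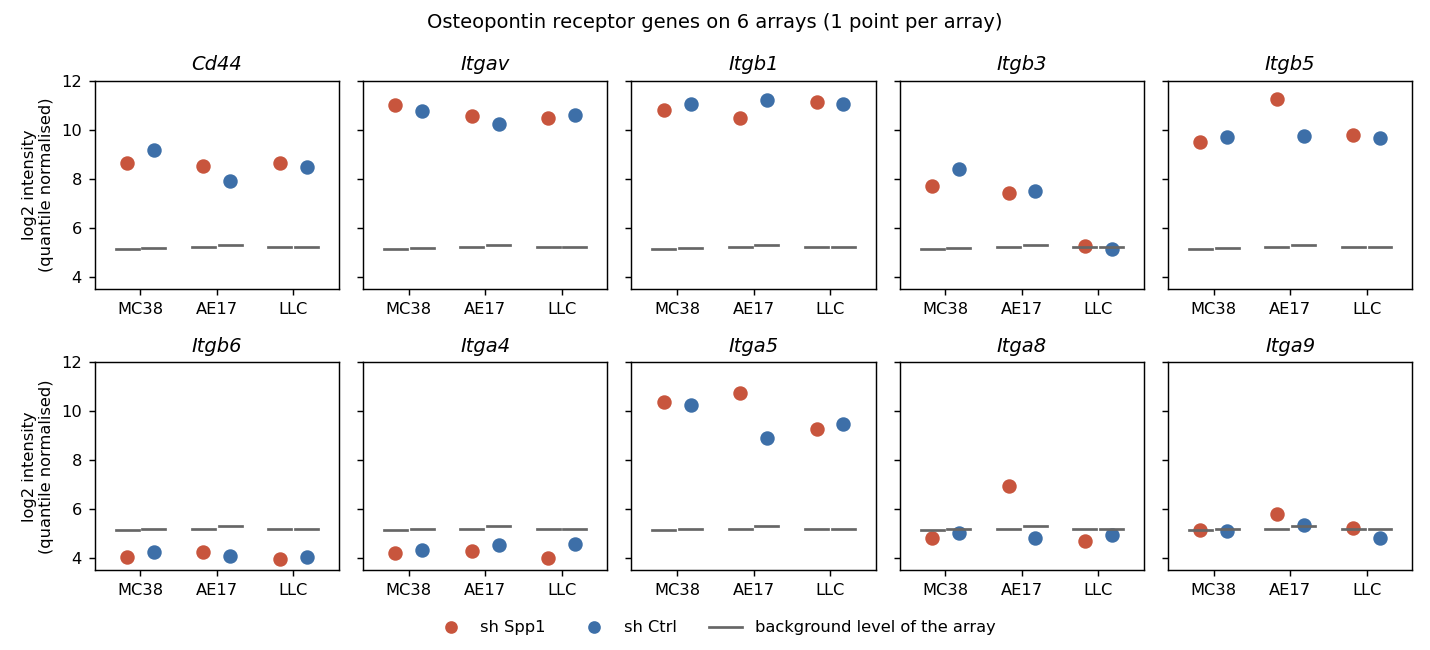
Log2 intensity (vertical axis, quantile normalized) of each osteopontin receptor gene on each of the 6 arrays, sh Spp1 and sh Ctrl side by side in MC38, AE17 and LLC; grey bars mark the background level of each array, 5.15 to 5.31. Itgb3 lies at 7.42 to 8.41 in MC38 and AE17 and at the background level in LLC, and Itga8 stands above background only on the AE17 sh Spp1 array, at 6.94.

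The pairs above background differed between the arrays of a line by 1 or 2. In MC38 5 pairs were above background with sh Spp1 and 4 with sh Ctrl, and Itga9 made the difference, at 5.17 with sh Spp1 against a level of 5.15. In AE17 the counts were 6 with sh Spp1 and 5 with sh Ctrl, and the pair added with sh Spp1 was Itga8-Itgb1, with Itga8 at 6.94. In LLC they were 5 with sh Spp1 and 3 with sh Ctrl, through Itgb3 at 5.24, against a background level of 5.21, and Itga9 at 5.25. Itgav-Itgb6 and Itga4-Itgb1 were above background on 0 arrays. With the 99th percentile as the background level the counts over both arrays were 4 in MC38, 4 in AE17 and 3 in LLC. Itga9-Itgb1 was then above background on 0 arrays.

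**Figure D2:**
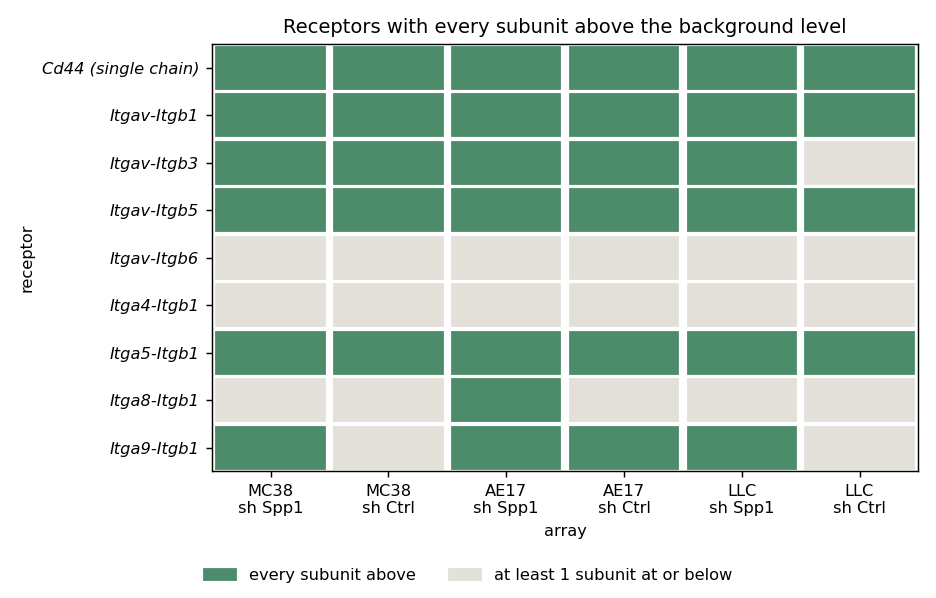
Receptors (rows) on the 6 arrays (columns): a green cell means that every subunit of the receptor was above the background level of that array, a grey cell that at least 1 was not. Cd44, Itgav-Itgb1, Itgav-Itgb5 and Itga5-Itgb1 are green on all 6 arrays, Itga8-Itgb1 on 1, and Itgav-Itgb6 and Itga4-Itgb1 on 0.

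Cd44, the hyaluronan receptor, counted here as a single chain, was at 8.64 with sh Spp1, against 9.18 with sh Ctrl, in MC38. In AE17 it was at 8.51 with sh Spp1 and 7.93 with sh Ctrl, and in LLC at 8.63 with sh Spp1 and 8.49 with sh Ctrl. The 3 sh Spp1 arrays lay close together and inside the range of the sh Ctrl arrays. The log2 ratio of sh Spp1 over sh Ctrl was -0.54 in MC38, 0.58 in AE17 and 0.15 in LLC, a mean of 0.06 ± 0.56 (SD, n = 3 lines). The ratio in MC38 was lower than that of all but 6.51% of genes. One probe set covers the gene, so splice forms of Cd44 were not separated.

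Itgav, the alpha chain shared by most RGD integrins, was at 11.03 with sh Spp1 and 10.76 with sh Ctrl in MC38, at 10.56 (sh Spp1) and 10.24 (sh Ctrl) in AE17, and at 10.48 (sh Spp1) and 10.61 (sh Ctrl) in LLC. Its levels spanned 0.79 log2 units over the 6 arrays, and the sh Spp1 and sh Ctrl arrays overlapped. The mean log2 ratio was 0.16 ± 0.25 (SD, n = 3 lines). Its second probe set was dim, between 3.77 and 4.65, and with the mean of both probe sets the value over the lines turned to -0.03.

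Itgb1, the most widely used beta chain and the partner of Itga4, Itga5, Itga8 and Itga9, was at 10.82 with sh Spp1 and 11.07 with sh Ctrl in MC38, at 10.48 (sh Spp1) and 11.24 (sh Ctrl) in AE17, and at 11.14 (sh Spp1) and 11.06 (sh Ctrl) in LLC. The AE17 sh Spp1 array was the lowest of the 6 and the AE17 sh Ctrl array the highest. The AE17 log2 ratio was -0.76, or 1.70-fold higher with sh Ctrl, and -0.39 relative to all genes in the values as deposited. Over the lines the mean was -0.31 ± 0.42 (SD, n = 3 lines).

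Itgb3, the beta chain of the vitronectin receptor of osteoclasts and of many invasive tumours, had the widest span of the 10 genes, 3.30 log2 units. It was at 7.71 with sh Spp1 and 8.41 with sh Ctrl in MC38, at 7.42 (sh Spp1) and 7.51 (sh Ctrl) in AE17, and at 5.24 (sh Spp1) and 5.11 (sh Ctrl) in LLC. The 4 arrays of MC38 and AE17 lay above both LLC arrays, and the sh Spp1 and sh Ctrl arrays overlapped. The log2 ratio in MC38, -0.70, was lower than that of all but 3.60% of genes, and the ratios in AE17 and LLC were -0.09 and 0.12. The mean was -0.22 ± 0.43 (SD, n = 3 lines).

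Itgb5, which pairs with Itgav as a second vitronectin receptor, was at 9.52 with sh Spp1 and 9.69 with sh Ctrl in MC38, at 11.25 (sh Spp1) and 9.74 (sh Ctrl) in AE17, and at 9.78 (sh Spp1) and 9.67 (sh Ctrl) in LLC. The other 5 arrays lay close together, and the AE17 sh Spp1 array stood above them. Itgb6, an epithelial beta chain known for activating latent TGF-beta, was at 4.04 (sh Spp1) and 4.24 (sh Ctrl) in MC38, 4.27 (sh Spp1) and 4.07 (sh Ctrl) in AE17, and 3.96 (sh Spp1) and 4.03 (sh Ctrl) in LLC. All 6 values were below background, and Itgb6 was too dim to be tested.

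Itga5, which with Itgb1 forms the classical fibronectin receptor, was at 10.37 with sh Spp1 and 10.27 with sh Ctrl in MC38, at 10.75 (sh Spp1) and 8.91 (sh Ctrl) in AE17, and at 9.29 (sh Spp1) and 9.50 (sh Ctrl) in LLC. The AE17 arrays were the highest and the lowest of the 6. Itga8, whose product with Itgb1 binds nephronectin in the developing kidney, was at 4.81 (sh Spp1) and 5.02 (sh Ctrl) in MC38, 6.94 (sh Spp1) and 4.83 (sh Ctrl) in AE17, and 4.69 (sh Spp1) and 4.94 (sh Ctrl) in LLC. Only the AE17 sh Spp1 array was above background.

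Itga9 and Itga4, the alpha chains for the site that cleavage exposes, were close to background or below it. Itga9 was at 5.17 with sh Spp1 and 5.09 with sh Ctrl in MC38, at 5.81 (sh Spp1) and 5.34 (sh Ctrl) in AE17, and at 5.25 (sh Spp1) and 4.82 (sh Ctrl) in LLC. Its log2 ratios, 0.07, 0.48 and 0.43, were above 0 in 3 of 3 lines, with a mean of 0.33 ± 0.22 (SD, n = 3 lines), but relative to all genes in the values as deposited the MC38 ratio was -0.21, and the arrays of both kinds overlapped. Itga4, the chain of the leukocyte receptor for Vcam1, was at 4.19 (sh Spp1) and 4.35 (sh Ctrl) in MC38, 4.30 (sh Spp1) and 4.53 (sh Ctrl) in AE17, and 4.001 (sh Spp1) and 4.58 (sh Ctrl) in LLC. Its 3 sh Spp1 arrays lay below its 3 sh Ctrl arrays, all 6 of them under background, so the ratios carry no level, and it was too dim to be tested. Among tested genes, 10.5% had sh Spp1 and sh Ctrl arrays that did not overlap, and 0 of the 8 tested receptor genes did.

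The comparison of sh Spp1 with sh Ctrl over the 3 lines asked whether receptor transcripts differ with depletion of their ligand. No receptor gene passed: limma, with the line as a block, called 0 of 8 tested members, as it called 0% of 16797 genes. The members' adjusted p from limma ran from 0.723 to 0.951, and their lowest unadjusted p was 0.135, for Itga9. At an unadjusted p under 0.05 there were 0 members and 6.05% of all genes, and without AE17 limma also called 0 members. The estimated differences ran from -0.31 ± 0.23 for Itgb1 to 0.58 ± 0.45 for Itga5 (SE of the fit), and Itga9 and Itga4 alone of the 10 genes had 1 sign in all lines, against 32.2% of tested genes. With 3 pairs, the smallest p of an exact sign-flip test is 0.25. The p-values measure the spread between lines, since no line has replicate cultures.

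Single lines allow no test, and a difference was counted when the log2 ratio was at least 1 in size. In MC38 0 receptor genes reached it, where 2.59% of all genes did, and in LLC 0, where 3.56% did. In AE17 3 did, Itga8, Itga5 and Itgb5, all higher with sh Spp1, where 18.6% of all genes did, 9.9% higher and 8.71% lower. The median over all 10 genes was -0.19 in MC38, 0.40 in AE17 and 0.00 in LLC, against 0.02, -0.04 and 0.03 over all genes compared. Of the 10, 8 in MC38, 9 in AE17 and 9 in LLC were bright enough to be compared. Their medians were -0.19 in MC38, 0.48 in AE17 and 0.08 in LLC. Above 0 were 3 (MC38), 7 (AE17) and 5 (LLC) of the 10 genes, against 52.5%, 47.4% and 52.7% of all genes compared. Without normalization between arrays, in the values as deposited, the median of all genes was 0.08 in MC38, -0.24 in AE17 and -0.46 in LLC. Relative to that median, 8 of the 30 ratios of member and line had another sign than in the quantile values, and the largest of these 8 was -0.25, for Itgb1 in MC38.

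**Figure D3:**
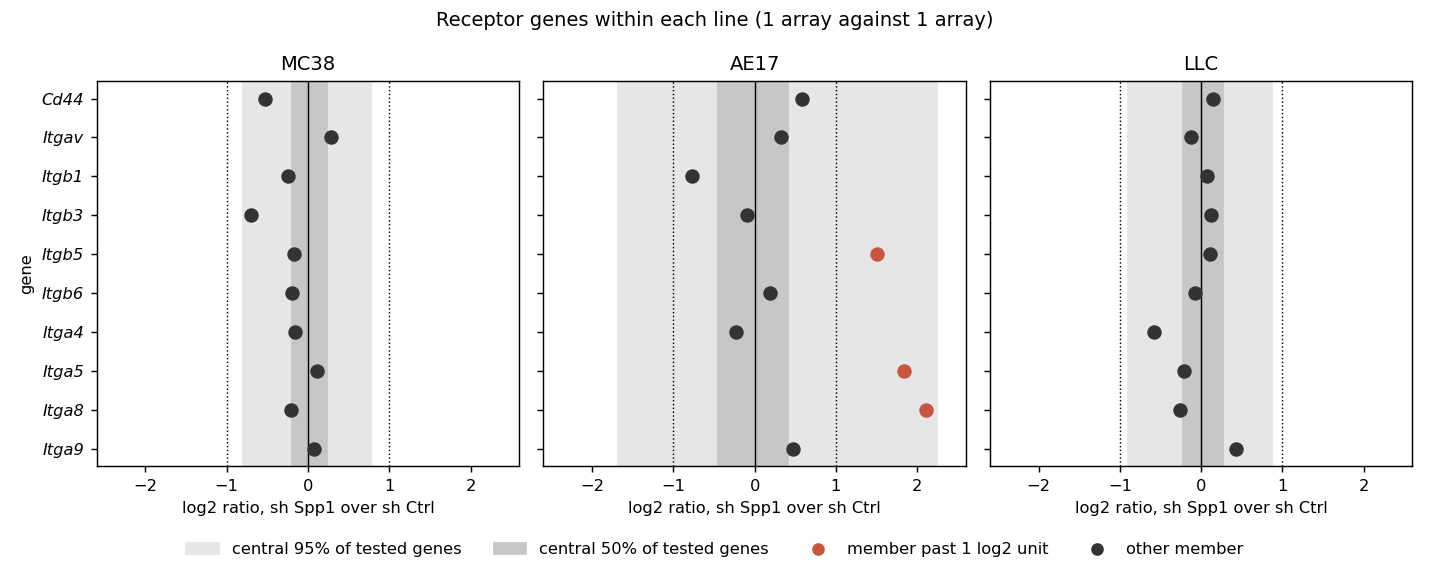
Log2 ratio of sh Spp1 over sh Ctrl (horizontal axis) for each receptor gene in MC38, AE17 and LLC, 1 array against 1 array; grey bands hold the central 50% and 95% of tested genes, and dotted lines mark a log2 ratio of 1 in either direction. Itgb5, Itga5 and Itga8 pass 1 in AE17, at 1.51, 1.84 and 2.11, inside the wide band of that line, and no receptor gene does in MC38 or LLC.

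The 3 genes of AE17 carry the largest ratios among the receptors. Itga8 had 2.11, a measured 4.32-fold, and at least 3.09-fold when its sh Ctrl level is set at the background level. Itga5 had 1.84, or 3.57-fold, and Itgb5 1.51, or 2.85-fold. They stood above 97.2%, 96.3% and 94.8% of genes in that line, and relative to all genes they were 2.03, 2.32 and 1.99 in the values as deposited. In MC38 the same genes had -0.21, 0.11 and -0.17, and in LLC -0.25, -0.21 and 0.11. Itga5 and Itga8 share the beta chain Itgb1, whose ratio in AE17 was -0.76, and Itgb5 pairs with Itgav, whose ratio was 0.32. Markers of other cells also differed between the AE17 arrays. Over all genes of AE17, 9.9% were higher by at least 1 log2 unit with sh Spp1 and 8.71% lower, the shares beside each marker count here. Of 9 fibroblast and mesenchymal markers 3 were higher by at least 1 log2 unit and 1 lower with sh Spp1. The higher genes were Col1a1 at 5.09, Col3a1 at 2.29 and Pdgfrb, at 10.84 with sh Spp1 and 7.62 with sh Ctrl. The lower gene was Pdgfra, at 8.97 with sh Spp1 and 10.11 with sh Ctrl. The median ratio of the 9 was 0.13, with 6 above 0. The log2 of their summed intensity was 14.16 with sh Spp1 and 13.66 with sh Ctrl. Over all lines it ran from 13.02 to 14.16 with sh Spp1 and from 13.50 to 14.03 with sh Ctrl. Of 7 epithelial markers compared 1 was lower, Krt8 at -4.61, and 0 higher by that size. Their median ratio was 0.15, with 4 of 7 above 0. The epithelial sum was 9.07 with sh Spp1 and 11.32 with sh Ctrl, where it was mostly Krt8, at 11.08. Over all lines that sum ran from 8.56 to 10.41 with sh Spp1 and from 8.37 to 11.32 with sh Ctrl. Of 9 mesothelial markers 3 were higher and 1 lower in AE17, with sums of 10.37 with sh Spp1 and 8.86 with sh Ctrl. Of 4 platelet markers 1 was lower by at least 1 log2 unit, and of 6 endothelial markers 2 were, with 0 higher in either list. Platelet markers summed to 7.53 with sh Spp1 and 11.65 with sh Ctrl, where the sum was mostly the chemokine gene Ppbp. Ppbp was at 5.13 with sh Spp1, under background, and at 11.55 with sh Ctrl. The median log2 ratio of the platelet list was -0.70, with 1 of 4 above 0. Endothelial markers summed to 7.72 with sh Spp1 and 8.69 with sh Ctrl. Of 7 leukocyte markers compared 1 was higher in AE17, Cd68 at 8.71 with sh Spp1 and 7.31 with sh Ctrl, and 1 lower, Lyz2 at 5.12 with sh Spp1, under background, and 7.50 with sh Ctrl. Leukocyte markers summed to 9.28 with sh Spp1 and 9.05 with sh Ctrl there, and over all lines to between 8.22 and 9.28 with sh Spp1 and between 8.15 and 9.05 with sh Ctrl. The part of these markers in the receptor values was not tested. In RNA from whole cultures, fewer cells of a kind and less RNA per cell cannot be told apart.

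The promoters of the 3 genes that stood out in AE17, and of Itgb1, the partner of Itga5 and Itga8, are shown so that the start regions of genes that were higher on 1 array can be set beside that of a chain that was lower on it. Each runs from 250 bases before to 50 after the start site in RefSeq on GRCm38.p6, and capitals mark the motif matches described after them.
Itga5, chr15:103366742-103367041, minus strand: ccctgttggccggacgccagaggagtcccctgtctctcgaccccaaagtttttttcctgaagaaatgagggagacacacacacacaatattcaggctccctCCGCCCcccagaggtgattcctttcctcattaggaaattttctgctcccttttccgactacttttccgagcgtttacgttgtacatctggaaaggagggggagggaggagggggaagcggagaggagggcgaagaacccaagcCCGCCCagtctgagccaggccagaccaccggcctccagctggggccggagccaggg
Itgb5, chr16:33829415-33829714, plus strand: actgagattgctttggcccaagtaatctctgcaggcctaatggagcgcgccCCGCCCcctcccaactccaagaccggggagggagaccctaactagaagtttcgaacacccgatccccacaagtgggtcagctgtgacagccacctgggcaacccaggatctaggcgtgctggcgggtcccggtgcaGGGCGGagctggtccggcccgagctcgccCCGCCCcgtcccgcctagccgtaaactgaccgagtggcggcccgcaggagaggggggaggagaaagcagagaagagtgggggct
Itga8, chr2:12301895-12302194, minus strand: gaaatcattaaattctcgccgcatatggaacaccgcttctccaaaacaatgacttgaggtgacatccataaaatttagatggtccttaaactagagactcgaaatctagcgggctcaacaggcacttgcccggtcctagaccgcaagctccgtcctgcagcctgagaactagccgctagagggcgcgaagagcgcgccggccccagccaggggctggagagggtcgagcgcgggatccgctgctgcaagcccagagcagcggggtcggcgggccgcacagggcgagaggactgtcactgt
Itgb1, chr8:128685404-128685703, plus strand: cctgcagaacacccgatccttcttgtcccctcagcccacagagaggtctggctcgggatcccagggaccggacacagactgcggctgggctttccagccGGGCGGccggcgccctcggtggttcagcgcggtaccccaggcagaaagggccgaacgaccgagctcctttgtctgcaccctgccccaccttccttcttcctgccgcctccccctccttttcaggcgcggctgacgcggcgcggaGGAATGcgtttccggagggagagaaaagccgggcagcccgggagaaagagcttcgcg

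The following motifs were searched on both strands: the GC box GGGCGG, the AP-1 site TGANTCA, the TEAD site GGAATG and the E box CACGTG. Counted by the first base of the match from the start site, Itga5 held GC boxes at -149 and -6, and Itgb5 at -199, -63 and -34. Itgb1 held a GC box at -151 and a TEAD site at -7. The Itga8 window held none of these motifs. Of 32851 RefSeq promoters of this length, 35.7% hold a GC box, 7.81% an AP-1 site, 14.7% a TEAD site and 7.15% an E box. Promoter sequences were found for 9 of the 10 genes, and among the others Cd44, Itgav and Itga4 held a GC box and Itga9 an AP-1 site. The letters searched do not overlap between motifs in these windows. GC made up 58.7% of the Itga5 window, 65.7% of that of Itgb5, 59% of that of Itga8 and 67.3% of that of Itgb1, against a median of 52.7% over all promoters.

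The lines themselves differed most in Itgb3. Its mean over both arrays was 8.06 in MC38, against 5.18 in LLC, a difference of 2.89 ± 0.28 log2 units (SE), or at least 7.16-fold when LLC is set at the background level. AE17, at 7.46, was 2.29 ± 0.28 above LLC, or at least 4.73-fold. Neither passed in limma over all genes, with adjusted p = 0.0682 and 0.186 and unadjusted p = 0.000209 and 0.000595, and the difference of 0.60 between MC38 and AE17 had adjusted p = 0.439. Limma called 0 of 8 members in each of the 3 line contrasts, and 0% of all genes. The SE and p-values of these contrasts come from the fit of all arrays together. They measure how the ratio of sh Spp1 over sh Ctrl varied between lines. The spread between cultures of the same line and kind was not measured, since no line has replicate cultures. At an unadjusted p under 0.05, Itgb3 was the only member in MC38 over LLC and in AE17 over LLC, where 11.5% and 12.8% of genes were, and 0 members were in MC38 over AE17, where 13.2% were.

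The Itgb3 calls depended on the AE17 arrays. With either AE17 array left out, Itgb3 in MC38 over LLC passed with a limma adjusted p of 0.00537, and 6.14% of all genes then passed. In AE17 over LLC it passed as well, with 2.38 and adjusted p = 0.0206 without the AE17 sh Ctrl array and with 2.19 and adjusted p = 0.0413 without the AE17 sh Spp1 array, each resting on a lone AE17 array that is assumed to vary like the other lines. Without the sh Ctrl array, Itga5, Itga8 and Itgb5 also passed in AE17 over LLC, at 1.38, 2.24 and 1.55, among 8.59% of all genes. Both LLC arrays were under background for Itga8, so its difference there is at least 1.73, or 3.32-fold. Without the sh Spp1 array, Itgb3 alone passed, among 3.04%.

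**Figure D4:**
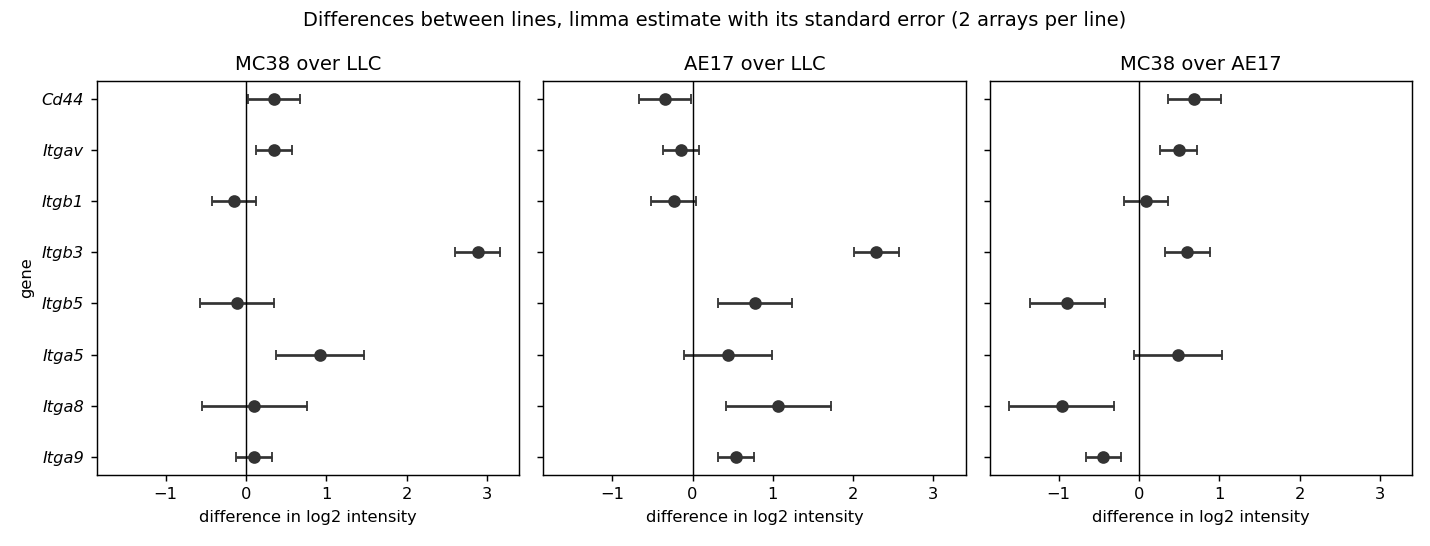
Difference in log2 intensity between lines (horizontal axis) for the 8 tested receptor genes, as the limma estimate from 2 arrays per line. The standard error comes from the fit of all arrays together, since no line has replicate cultures. Itgb3 is 2.89 higher in MC38 and 2.29 higher in AE17 than in LLC; all other differences lie between -0.96 and 1.07, with standard errors of up to 0.66.

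The order of the other receptors between lines was less clear. Cd44 and Itgav were highest in MC38, at means of 8.91 and 10.89, next in LLC, at 8.56 and 10.54, and lowest in AE17, at 8.22 and 10.40. For both genes the MC38 arrays lay above those of each other line, and the arrays of AE17 and LLC overlapped. For Cd44 the gap to LLC was very small, with sh Spp1 at 8.642 in MC38 and 8.635 in LLC. Its limma difference in MC38 over LLC was 0.35 ± 0.33 (SE), with an unadjusted p of 0.337. Itga5 was at 10.32 in MC38, 9.83 in AE17 and 9.39 in LLC, and the AE17 arrays lay on either side of all others. Itgb1 was at 10.95 in MC38, 10.86 in AE17 and 11.10 in LLC, and its arrays overlapped between every pair of lines. Of the 8 tested members, arrays did not overlap for 4 in MC38 over LLC, where 49.1% of genes did not. Cd44 is among these 4 only by the small gap given above. Arrays did not overlap for 2 members in AE17 over LLC, where 41.6% of genes did not. In MC38 over AE17 they did not for 5, where 43.4% of genes did not.

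Other integrin subunits, most of which form receptors of collagen, laminin or leukocyte ligands, showed within-line differences of the same kind. In limma 0 of them passed in any contrast. Of those compared by size, 1 of 15 was higher and 2 lower in MC38, 3 of 16 higher and 2 lower in AE17, and 1 of 15 higher and 0 lower in LLC, where 2.59% (MC38), 18.6% (AE17) and 3.56% (LLC) of all genes passed in either direction. Itgb7, the beta chain of gut-homing lymphocyte integrins, had a log2 ratio of 1.57 in MC38, while AE17 gave 0.56 and LLC 1.07, with an unadjusted p of 0.00906 and a limma adjusted p of 0.723. Itgb2, the beta chain of leukocyte integrins, had -1.14, -2.49 and -0.64, with an unadjusted p of 0.0174 and the same adjusted p. In AE17 the collagen receptor chain Itga11 had 2.88, the laminin receptor chain Itga7 2.03 and the collagen receptor chain Itga2 -1.49. In MC38 Itga1, a collagen receptor chain, had -1.12, but with sh Spp1 under background and sh Ctrl barely above it the difference is only bounded, at 0.066 or more. Itgb8, another partner of Itgav, was at 8.53 (sh Spp1) and 8.77 (sh Ctrl) in MC38, 5.50 (sh Spp1) and 4.65 (sh Ctrl) in AE17, and 6.05 (sh Spp1) and 6.23 (sh Ctrl) in LLC. Its difference of 3.58 in MC38 over AE17 had a limma adjusted p of 0.0746, with 1 of the 2 AE17 arrays above background.

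Among the matrix ligands of these receptors, the largest ratios were in AE17. There 10 of 16 integrin ligand genes were higher by at least 1 log2 unit with sh Spp1 and 0 lower, where 9.9% of all genes were higher and 8.71% lower. The ligand median was 1.81, against -0.04 over all genes. Tenascin C, Tnc, was at 11.26 with sh Spp1 and 5.34 with sh Ctrl, a log2 ratio of 5.92, and fibronectin, Fn1, the ligand of Itga5-Itgb1, was at 12.09 with sh Spp1 and 6.57 with sh Ctrl, a ratio of 5.51. In MC38 0 ligands were higher and 1 lower, Vcam1 at -1.01, with a list median of -0.02. In LLC 1 was higher, the matricellular Ccn1 at 1.95, and 1 lower, thrombospondin Thbs1 at -1.004, with a median of 0.05. Of the ligands 15 were compared in each of these 2 lines, where 2.59% (MC38) and 3.56% (LLC) of all genes passed in either direction. In limma 0 ligand genes passed over the lines, and 0 had an unadjusted p under 0.05, where 6.05% of all genes did. The difference between the lines was not tested.

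Genes of integrin activation and of the adhesion complex were compared for 26 members, with medians of 0.23 (MC38), 0.53 (AE17) and 0.01 (LLC), against 0.02 (MC38), -0.04 (AE17) and 0.03 (LLC) over all genes. In AE17 5 were higher, among them the tensin Tns3 at 2.27 and the kinase Ptk2b at 1.63, and 1 was lower, Lims1 at -1.05, a scaffold of the integrin-linked kinase, where 9.9% of all genes were higher and 8.71% lower. In MC38 and LLC 0 passed the size limit in either direction. The docking protein Bcar1 had 0.99 in MC38, and Lims1 had 0.81 in LLC.

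Partners of Cd44 and genes of hyaluronan centred on 0.03 (median) in MC38, on -0.02 in AE17 and on -0.15 in LLC, against the same medians of all genes. In AE17 3 of 17 were higher and 2 lower, where 18.6% of all genes passed in either direction, with the hyaluronan synthase Has2 at 1.61, the hyaluronidase Hyal2 at 1.15 and the hyaluronan receptor Hmmr at -1.01. Has2 had -0.88 in MC38 and -0.76 in LLC, and 0 genes of the list passed the size limit in those lines. Of the proteases that can cut osteopontin, 8 were compared in each line. By size 0 were higher and 2 lower in MC38, 1 higher and 1 lower in AE17, and 0 higher and 1 lower in LLC. Of all genes, 2.59% (MC38), 18.6% (AE17) and 3.56% (LLC) passed in either direction. Mmp9 and Mmp2 had -2.08 and -1.04 in MC38, and Mmp2 had -5.67 in AE17. Mmp3 was at 6.81 with sh Spp1 in AE17 and under background, at 4.36, with sh Ctrl, at least 2.83-fold higher with sh Spp1. In LLC it was under background with sh Spp1, at 4.93, and at 8.78 with sh Ctrl, at least 11.8-fold lower with sh Spp1. No gene of either list passed in limma.

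**Figure D5:**
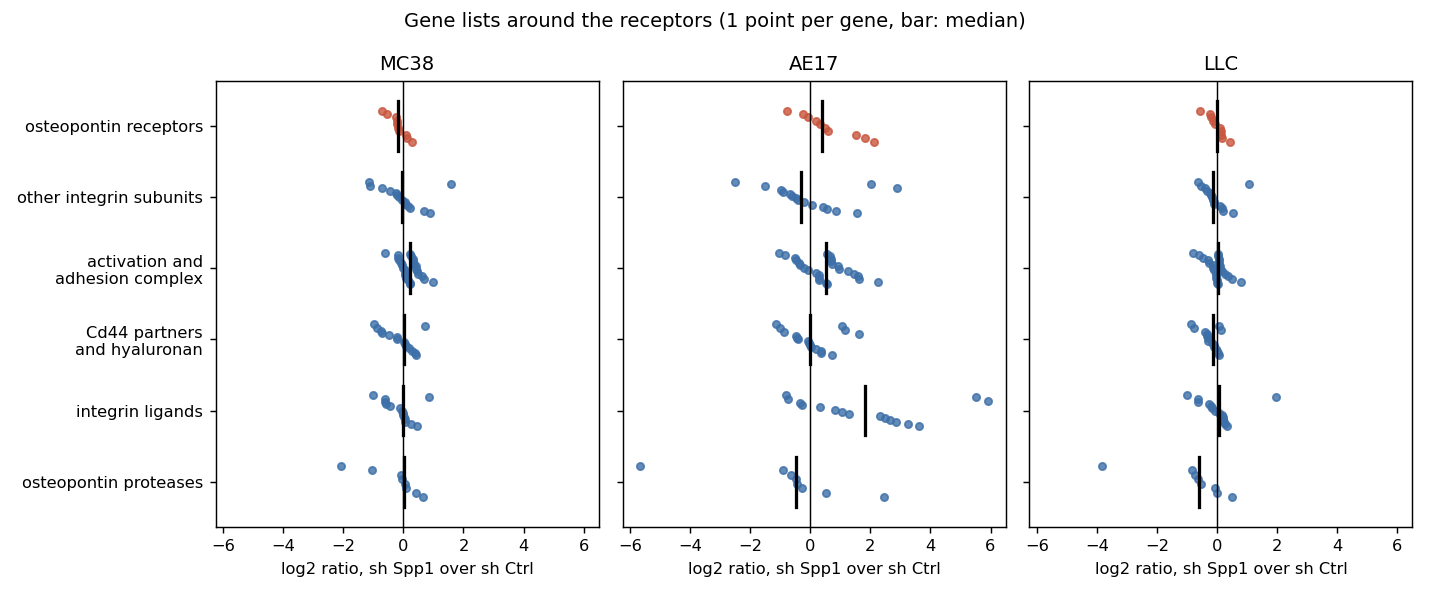
Log2 ratio of sh Spp1 over sh Ctrl (horizontal axis) in MC38, AE17 and LLC for all 10 osteopontin receptor genes and for the compared genes of the other lists, 1 point per gene, with a vertical bar at the median of each list. Integrin ligands have a median of 1.81 in AE17, and the medians of the receptors are -0.19, 0.40 and 0.00.

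For the receptors that spanned at least 1 log2 unit, the tested genes with the most similar profile over the 6 arrays were found by the root mean square difference of centred log2 values. Nearest to Cd44 were Spag7, Sgsm2 and Rlf, at 0.0554, 0.104 and 0.123 log2 units. Nearest to Itgb3 were the TNF receptor gene Tnfrsf1b, the homeobox gene Hoxc6 and Lmo7, at 0.193, 0.244 and 0.280. Itgb3 had no closer match, and its neighbours shared the low LLC levels. The profiles of Itgb5 and Itga8 are mostly the single AE17 sh Spp1 array, while Itga5 was also high on both MC38 arrays. Asap3, Zfp185 and Adcy5 were nearest to Itgb5, at 0.0865, 0.0908 and 0.0936. Wtip, Slc4a3 and Meis2 were nearest to Itga5, at 0.105, 0.161 and 0.168, and Slc9a7, the chemokine gene Cxcl14 and Ppp1r3c to Itga8, at 0.0709, 0.0944 and 0.0980. The likeness is a description over 6 arrays.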

How the data were processed

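The deposited table holds 1 linear intensity per probe set and array, with 41345 probe sets on 6 one-colour arrays. Among tools, RMA is named in the submitters' processing notes and GeneSpring GX 12.5 in the design text, but the array medians of the deposited intensities ran from 26.6 to 64.2, so the values were not taken as normalized between arrays. RNA had been biotin labelled, per the labels' protocols.

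Intensities were log2 transformed and quantile normalized with limma 3.58.1 in R 4.3.3. Genes came from the platform annotation: 23521 probe sets name 1 gene, 1814 several and 16010 none, and the brightest stood for its gene. The 16797 genes whose mean reached a floor of 4.49, the 30th percentile of probe sets, were tested with lmFit and eBayes, with line and shRNA as terms and Benjamini-Hochberg adjustment at 0.05. Within a line, genes at or above that floor on at least 1 of 2 arrays were compared by size. The fit was tested on simulated data. The members and lists were chosen with earlier results of these data known. All 10 members are named. Of each other list the text names at most the 2 highest and 2 lowest ratios per line, and of similar profiles the nearest 3. Itgb8, Col1a1, Col3a1, Pdgfrb, Pdgfra, Krt8, Ppbp, Cd68 and Lyz2 and the marker genes of the opening were named after their values were seen. So was the Itgb7 and Itgb2 value in the remaining line. Line pairs the arrays, since each line has 1 of each kind. Alternatives covered scaling, filters, probe set choice, variance prior, thresholds, the block, the shRNA term and each array or line left out. Tables and figures used Python 3.11.15, pandas 2.3.3 and matplotlib 3.10.9. Promoter sequences come from RefSeq on GRCm38.p6.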

Additional observations from a re-analysis of the deposited data

Results flagged for a closer look

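Cd44 had a log2 ratio of sh Spp1 over sh Ctrl of -0.54 in MC38 and 0.58 in AE17, opposite directions in the 2 lines. Each ratio is 1 array against 1 array, and the difference between the lines was not tested. The values as deposited, relative to the median of all genes, gave -0.27 in MC38 and 0.93 in AE17.

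A probe set that names both Cerkl and Itga4 was left out of the gene levels because its signal cannot be assigned to 1 gene. It was at 5.23 on the AE17 sh Spp1 array, just above the background level, against 4.48 on the AE17 sh Ctrl array. The probe set that names Itga4 alone was below background on that array, at 4.30.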

How the results depend on the processing

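Of the counts of receptor genes and pairs, 65 recomputed values kept the reported count within 1.5 times and 17 did not. Among single genes 183 recomputed values were classed as unchanged and 20 as moved. A further 6 passed a threshold they had not passed, and 9, all means over the lines, were classed as reversed. For ratios within a single line that class did not require the same sign. They took another sign in 14 of 90 recomputed values, some of them classed as unchanged. The count of receptor genes called for sh Spp1 over sh Ctrl was 0 under every alternative run. In MC38 over LLC 1 gene, Itgb3, was called in the values as deposited (2.83, limma adjusted p = 0.00790), where 1.34% of all genes were. Itgb3 alone was also called at an adjusted p under 0.1 (0.667% of all genes) and at an unadjusted p under 0.05 (11.5%). Without the shRNA term it was called with a limma adjusted p of 0.0274, among 0.53% of all genes. Its limma adjusted p over the alternatives ran from 0.00537 to 0.635, and that of AE17 over LLC from 0.0206 to 0.962. In AE17 over LLC 1 gene passed at an unadjusted p under 0.05, where 12.8% of all genes did. With single arrays left out, the calls ran from 0 to 4 in AE17 over LLC, from 0 to 1 in MC38 over LLC and from 0 to 2 in MC38 over AE17. The MC38 over AE17 calls came without the AE17 sh Ctrl array (Itga8 at -2.14, with both MC38 arrays under background and a bound of 1.77 in size, and Itgb5 at -1.66, with 6.89% of all genes) and without the AE17 sh Spp1 array (Itga5 at 1.43, with 6.5%). By size in LLC, 2 genes passed in the values as deposited (Itga4 and Itga8, both below background, with 16.3% of all genes) and 2 under median centring (Itgb1 and Itgb5, with 16.8%). At a log2 ratio of 0.5 the counts were 2 in MC38, 5 in AE17 and 1 in LLC, where 16.2%, 44.4% and 21.4% of all genes passed. With the brightness floor as background, each line had 6 pairs on both arrays.

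With 1 line left out at a time, the mean log2 difference over the lines ran from -0.19 to 0.36 for Cd44, from -0.40 to 0.015 for Itgb3, from -0.032 to 0.81 for Itgb5, from -0.053 to 0.97 for Itga5 and from -0.23 to 0.95 for Itga8. The value of the other sign came without MC38 for Itgb3 and without AE17 for the others. The sign also changed with median centring for Itgb1 (0.43) and Itgb3 (0.087), as deposited for Itga9 (-0.15), and with the mean of both probe sets for Itgav (-0.0295). The cause was not tested. Without the line as replicate block the count stayed 0. Brightness limits Itgb6 and Itga4, which lay under background on all arrays.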
